A study of Caenorhabditis elegans with 2 samples.

Results

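The genes described here make and recycle glutathione. They are gcs-1, gss-1 and gsr-1, named from the Ensembl WBcel235 annotation, and they make up 3 of the 19973 protein-coding genes on the nuclear chromosomes of Caenorhabditis elegans. Their data are the regions called by ChIP-seq whose summit, the base of highest enrichment, fell from 1000 bp upstream to 200 bp downstream of any of their transcript starts, a span called the promoter window below. The precipitated protein was SKN-1 fused to eGFP in whole L1 larvae, the first larval stage, of both sexes. The strain was OP178, which carries the integrated transgene wgIs178 and the unc-119(ed3) III allele. The series had 1 group with 2 biological replicates, and neither another condition nor a strain without the tag was analysed here. Differences between conditions therefore cannot be given, and a peak was not tested for dependence on SKN-1. The promoter and the cells that express the transgene are not stated in the labels, and a whole-larva signal cannot be assigned to a tissue.

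Glutathione is a tripeptide thiol that buffers the redox state of the cell and is used by transferases and peroxidases to remove electrophiles and peroxides. Glutamate-cysteine ligase, whose catalytic subunit is encoded by gcs-1, joins glutamate to cysteine and is the rate-limiting step. Glutathione synthetase, encoded by gss-1, adds glycine. Glutathione reductase, encoded by gsr-1, returns oxidised glutathione to the thiol form with NADPH as the electron donor. The worm relative of the Nrf proteins of mammals is SKN-1, which is known to activate gcs-1 in the intestine under oxidative stress. Unlike other bZIP factors it binds DNA as a monomer.

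The 3 genes carried 4 peaks of the deposited optimal list in their promoter windows. That list was derived by the authors from both replicates with the irreproducible discovery rate (IDR) procedure and holds 3484 peaks. The sequences at 3 of these summits are shown first, because the positions of SKN-1 sites relative to them are used throughout. Each line holds the summit base with 85 bases on either side, a width chosen after the positions were seen. All are read 5′ to 3′ on the strand of the member gene from the RefSeq copy of WBcel235, the assembly of the deposited ce11 lists. Capitals mark matches on either strand to the SKN-1 site, which is the words AATATCAT, AATGTCAT, ATTATCAT, ATTGTCAT, TATATCAT, TATGTCAT, TTTATCAT and TTTGTCAT, or to its core, ATCAT or GTCAT. Every match to the site contains a match to the core, and adjoining matches run together.
gcs-1, chrII:9038844-9039014, minus strand: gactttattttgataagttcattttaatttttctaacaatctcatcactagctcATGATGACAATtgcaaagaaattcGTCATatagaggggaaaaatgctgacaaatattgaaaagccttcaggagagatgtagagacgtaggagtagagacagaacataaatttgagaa
gss-1, chrII:9416771-9416941, minus strand: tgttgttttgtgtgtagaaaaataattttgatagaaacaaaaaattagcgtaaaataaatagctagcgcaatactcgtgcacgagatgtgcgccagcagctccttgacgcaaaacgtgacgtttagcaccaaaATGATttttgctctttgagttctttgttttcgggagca
gsr-1 upstream peak, chrIII:3650378-3650548, plus strand: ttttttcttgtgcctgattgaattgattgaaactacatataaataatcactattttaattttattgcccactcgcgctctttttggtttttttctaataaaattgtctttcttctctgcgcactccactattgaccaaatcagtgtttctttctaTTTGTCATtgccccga

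These stretches were rich in A and T. G and C made up 32.7% of the bases at gcs-1, 38% at gss-1 and 32.7% at the upstream peak of gsr-1. Over all optimal peaks the median was 42.7%, with quartiles of 37.4% and 48%, so gcs-1 and gsr-1 lay below the lower quartile and gss-1 just above it. The promoter windows of the 3 genes consisted of sequence that occurs once in the genome, since 100% of their overlapping 36-base stretches were unique.

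All 3 genes were bound, meaning that an optimal summit lay in a promoter window. Over all protein-coding genes, 3002 were bound (15%, Wilson 95% interval 14.5 to 15.5, which covers counting of genes only). A set of 3 genes chosen with earlier results known is too small to set against that share, and no test was made. Ranks below order the regions of a list by the signal value that the authors deposited with each region, from 1 for the strongest. The optimal list is the top of the list called on both replicates pooled, and all 3484 peaks had the same rank in both. Each replicate also has its own list of 30000 regions, which includes background. The number of reads is unknown, so no counting error can be given for a signal value.

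**Figure D1:**
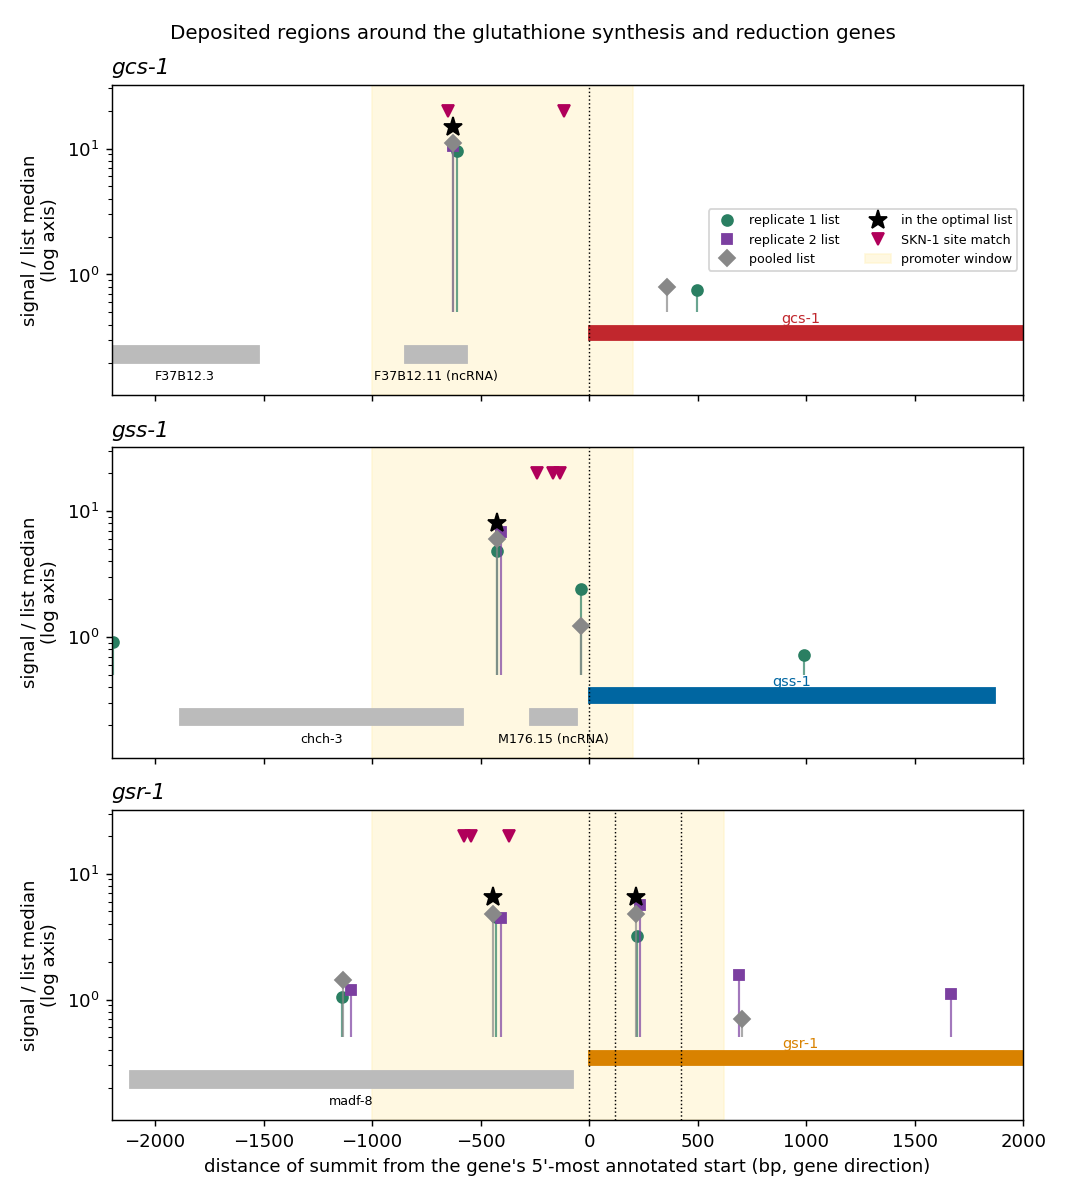
Signal of each deposited region divided by the median signal of its own list (log axis) against the distance of its summit from the 5′-most annotated start, for gcs-1, gss-1 and gsr-1 read in the direction of each gene. Dotted lines are transcript starts, grey bars neighbouring genes, triangles SKN-1 sites (those of the intronic gsr-1 peak are not drawn) and stars regions of the optimal list, set above the points with no value of their own; the strongest regions of both replicates sit together at 1 place in gcs-1 and gss-1 and at 2 places in gsr-1.

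The gene gcs-1 had the strongest peak of the 3. It is WBGene00001527, on the minus strand of chromosome II from 9035562 to 9038301, with 1 annotated coding transcript. Its optimal peak spanned 9038781 to 9039076, with the summit at 9038929, 628 bp upstream of the start. The deposited signal value was 52.9 in replicate 1, 84.8 in replicate 2 and 139.6 in the pooled call, each on the scale of its own list. These values ranked 525, 268 and 308, which is the strongest 1.75% of replicate 1's list, 0.893% of replicate 2's and 8.84% of the optimal peaks. In both replicates, then, the region was far above the level of most regions, at 9.54 times the list median in replicate 1 and 10.5 times in replicate 2. The replicate summits lay 21 bp and 2 bp downstream of the pooled one, towards gcs-1, and so 19 bp from each other. Among the optimal peaks with a region of each replicate within 100 bp, which were 92.7% of the list, the median distance between the replicate summits was 22 bp, with quartiles of 9 and 45 bp.

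No other region of any list lay in the promoter window of gcs-1. Within 4 kb on either side of the gene, the other regions ranked from 10077 to 23373 in replicate 1 and at 21567 and 25667 in the pooled list, and replicate 2 had none. The nearest of these were 357 bp and 496 bp downstream of the start, inside the gene, at 0.789 times the median of the pooled list and 0.757 times that of replicate 1.

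The peak of gcs-1 was far from the start and lay on an annotated non-coding gene. Over the 3002 bound genes, the strongest promoter peak lay at a median of 227 bp upstream of the nearest start, with quartiles of 419 and 128 bp, and in 13.8% of them it was as far upstream as in gcs-1 or farther. The summit fell in the single exon of F37B12.11, an ncRNA on the opposite strand from 9038863 to 9039150, 66 bp downstream of that transcript's start. Of all optimal summits, 330 (9.47%, 8.54 to 10.5) lay in a transcript of a gene that is not protein-coding. The next protein-coding gene, F37B12.3, ends 895 bp beyond the summit and is transcribed towards it, so gcs-1 was the nearest protein-coding start. The ChIP signal carries no strand, and whether it belongs to gcs-1 or to F37B12.11 cannot be told apart.

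**Figure D2:**
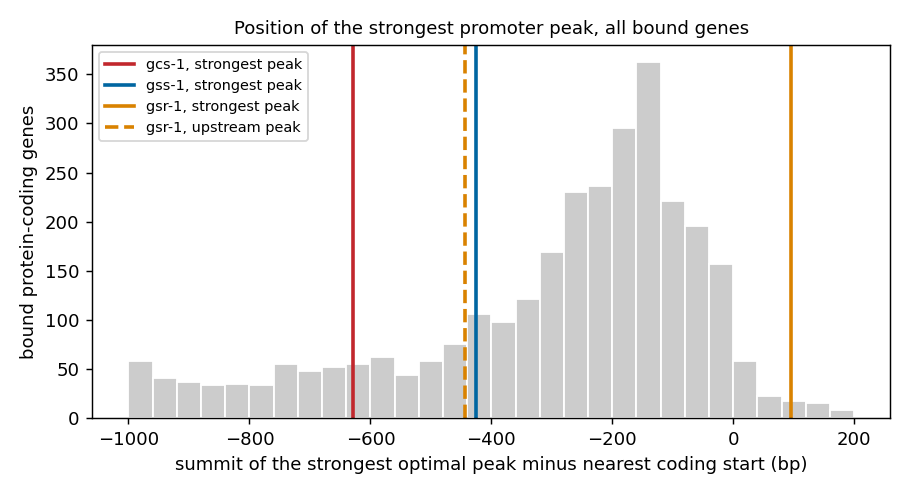
Number of bound protein-coding genes (y axis, 40 bp bins) by the distance of the summit of the strongest optimal peak from the nearest coding start (x axis, bp, negative upstream), with the member peaks as vertical lines. The line of gcs-1 at -628 stands left of the main mass, and the intronic peak of gsr-1 at 96 stands right of it. The lines of gss-1 at -425 and the upstream peak of gsr-1 at -444 stand just beyond the lower quartile of -419.

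The SKN-1 site nearest to the gcs-1 summit was 21 bp away from it. This match, from 9038950 to 9038957, reads ATTGTCAT on the plus strand, opposite to the gene, and a core on the gene's own strand, GTCAT, ended 3 bp upstream of the summit. A SKN-1 site lay within 75 bp of 327 of the optimal summits (9.39%, 8.46 to 10.4) and in 225 of 3476 windows of the same width 1000 bp away (6.47%, 5.7 to 7.34). The core lay within 75 bp of 42.5% of optimal summits, against 44.8% of the windows 1000 bp away, so its presence sets a summit apart little. The promoter window of gcs-1 held a second SKN-1 site, 120 bp upstream of the start and 508 bp from the summit. The nearest pooled summit was a weak region inside the gene, at rank 21567 and 470 bp from the site. It is shown here with 11 bases on either side, since it lies in the proximal promoter and outside the peak. In this line and the other lines of 30 bases, capitals mark the named site only, and cores that overlap or adjoin it are left in lower case.
gcs-1 proximal site, chrII:9038403-9038432, minus strand: caaaatatcacTTTATCATcatgagattta

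The gene gss-1 had a weaker peak, in a region it shares with a divergent neighbour. It is WBGene00010941, on the minus strand of chromosome II from 9414563 to 9416431, with 1 coding transcript. The optimal peak spanned 9416708 to 9417003, with the summit at 9416856 between genes. That is 425 bp upstream of the start of gss-1, and in 24.5% of bound genes the strongest peak was as far upstream or farther. It is also 157 bp upstream of the start of chch-3 (WBGene00010942), which is transcribed the other way and was the nearest protein-coding start. Of the 2299 optimal peaks in a promoter window, 795 (34.6%, 32.7 to 36.5) lay in windows of more than 1 protein-coding gene, so the data do not assign such a peak to either gene.

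The deposited signal of the gss-1 peak was 27.0 in replicate 1, 55.2 in replicate 2 and 76.0 in the pooled call. The ranks were 1664, 714 and 1127, and the strength relative to the list median was 4.86 times in replicate 1 and 6.81 times in replicate 2. The replicate summits lay 0 and 17 bp downstream of the pooled one in the direction of gss-1. Of the 3002 bound genes, 40.2% had a strongest peak as strong or stronger, against 12.2% for gcs-1 and 55.2% for gsr-1.

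A second region of gss-1 was seen in 1 replicate. It lay at the start of the gene, with its summit 37 bp upstream in replicate 1, where its signal of 13.4 ranked 3983, and 40 bp upstream in the pooled list, where its signal of 15.4 ranked 9643. Replicate 2's list held no region there, and the pooled region was not among the optimal peaks. The 3 SKN-1 sites of the promoter window lay between the summits of this region and of the optimal peak, 136, 168 and 242 bp upstream of the start and 183 to 289 bp from the optimal summit. All of them lie in M176.15, an annotated ncRNA on the opposite strand from 9416488 to 9416703 that ends 153 bp short of the summit. They are printed with 11 bases on either side, nearest to the start first, to show that the middle one faces the other way.
gss-1 site at 136 bp, chrII:9416549-9416578, minus strand: acgttatacgtTTTGTCATcacgatttcag
gss-1 site at 168 bp, chrII:9416581-9416610, minus strand: aaagagaaatgATGACAAAacatagaaacc
gss-1 site at 242 bp, chrII:9416655-9416684, minus strand: gcatccaagatTTTATCATaaactcgttca

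Near the optimal summit of gss-1 itself, no SKN-1 site was found within 75 bp and 1 core was, 48 bp away. At least 3 SKN-1 sites were found in 4.18% of the 1201-base promoter windows of all protein-coding genes, at least 2 in 16.3% and at least 1 in 48.9%, counting the 5′-most start of each gene. Counted in this way, the windows of gss-1 and gsr-1 hold 3 each, and that of gcs-1 holds 2.

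The gene gsr-1 had a pair of optimal peaks, which 4.53% of bound genes (136 of 3002) had or exceeded. It is WBGene00008117, on the plus strand of chromosome III from 3650907 to 3652958, with 3 coding transcripts that begin at 3650907 (C46F11.2a.1), 3651027 (C46F11.2b.2) and 3651329 (C46F11.2b.1). The a form is known to be the mitochondrial and the b form the cytosolic enzyme. The upstream peak spanned 3650315 to 3650610, with its summit at 3650463, 444 bp upstream of the first start. The intronic peak spanned 3650975 to 3651270, with its summit at 3651123, and so lay in an intron of the a and b.2 transcripts. That summit was 216 bp downstream of the first start, 96 bp downstream of the second and 206 bp upstream of the third. The summits were 660 bp apart.

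The 2 peaks of gsr-1 were of almost equal strength in the pooled call but not in either replicate. The pooled signal was 60.9 upstream and 61.0 in the intron, at ranks 1635 and 1631 of the optimal list. In replicate 1 the upstream peak was the stronger, with a signal of 25 at rank 1847, against 17.6 at rank 2899 in the intron. In replicate 2 the order was the other way round, with 35.8 at rank 1652 upstream and 45.8 at rank 1086 in the intron. With 2 replicates that differ in order, neither peak can be called the stronger. Such a switch was not rare: of 162 pairs of neighbouring optimal summits at most 1000 bp apart that had a region of each replicate near both, 55 (34%, 27.1 to 41.5) were ordered oppositely by the replicates. Both peaks were found by both replicates, with replicate summits 23 bp apart upstream and 16 bp apart in the intron. A weaker region was also found by both just outside the promoter window, 1140 bp upstream of the first start at rank 13767 in replicate 1 and 1096 bp upstream at rank 11116 in replicate 2. In the pooled list it ranked 7269, and it was not an optimal peak.

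**Figure D3:**
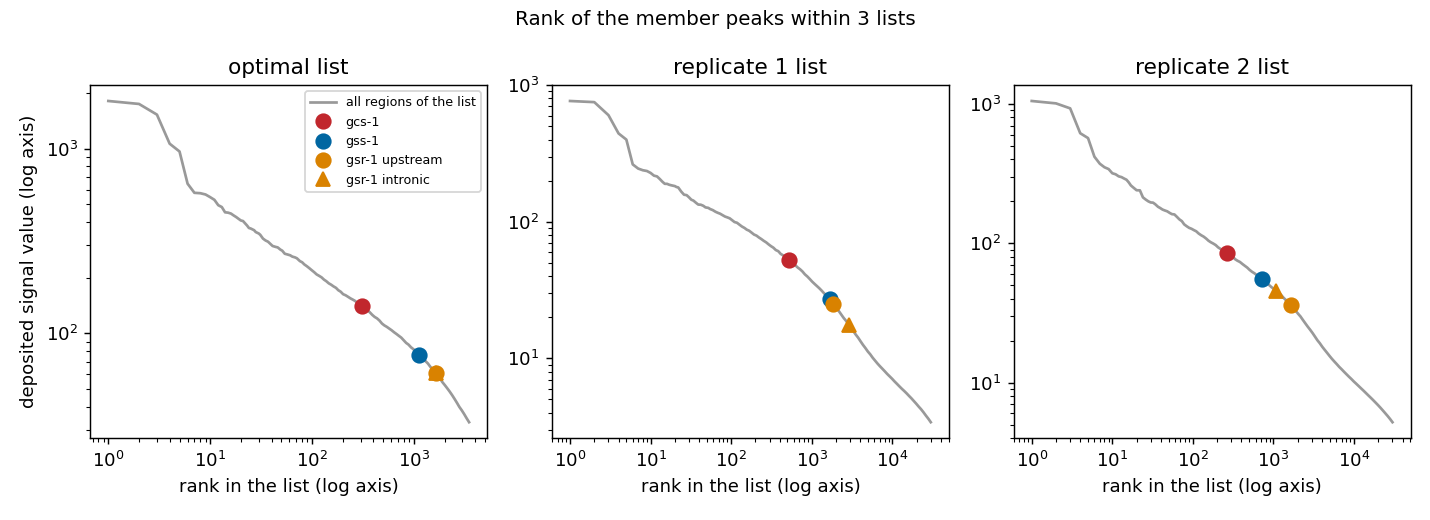
Deposited signal value (log axis) against rank (log axis) for all regions of the optimal list and of each replicate's list, with the member peaks as coloured points. The order gcs-1, gss-1, gsr-1 is the same in the 3 lists, while the 2 peaks of gsr-1 change places between replicate 1, where the upstream one ranks 1847 and the intronic one 2899, and replicate 2, where they rank 1652 and 1086.

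The peaks of gsr-1 also bear on its neighbour madf-8 (WBGene00008118), which is transcribed the other way from a start 75 bp from that of gsr-1. The upstream summit lay in an intron of madf-8, 369 bp downstream of that gene's start and outside its promoter window. The intronic summit was 291 bp upstream of the start of madf-8, within that window. With each peak given only to the nearest protein-coding start, the intronic peak stayed with gsr-1. The upstream peak was nearest to madf-8 but outside its promoter window, so it counted for neither gene.

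The upstream peak of gsr-1 held 3 SKN-1 sites, and all read TTTGTCAT on the strand of the gene. They lay 70 bp downstream and 96 and 130 bp upstream of the pooled summit, so none was wholly within 75 bp of it. The summits of both replicates lay closer to the site downstream, and a window of 75 bp around either held it. At least 3 SKN-1 sites within 150 bp were found at 13 of the 3484 optimal summits (0.373%, 0.218 to 0.637), of which the upstream peak of gsr-1 was 1. The sites that lie outside the stretches above are shown with 11 bases on either side.
gsr-1 site at 581 bp upstream, chrIII:3650315-3650344, plus strand: aaaatgtttgaTTTGTCATcattttttcta
gsr-1 site at 547 bp upstream, chrIII:3650349-3650378, plus strand: tcagtgaaactTTTGTCATcatttattagt

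A second motif was searched as well, the core of the antioxidant response element bound by mammalian Nrf factors, TGACNNNGC on either strand. It was not found within 150 bp of any of the 3 summits shown. Of all optimal summits, 6.17% had it within 150 bp and 3.87% within 75 bp. The promoter windows of gss-1 and gsr-1 held it 2 times and 1 time, outside the peaks, and 19.3% of all promoter windows held it at least once.

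The order of the 3 genes by rank was gcs-1, gss-1, gsr-1 in the optimal peaks and likewise in the regions of either replicate, taking the strongest promoter region of each gene. The ranks of gcs-1 in the replicates, 525 and 268, did not overlap those of gss-1, 1664 and 714. Within each replicate gss-1 also ranked ahead of gsr-1, at 1664 against 1847 in replicate 1 and 714 against 1086 in replicate 2. The ranges of these 2 genes over both replicates overlapped. The strongest region of gsr-1 was not the same one in both replicates, and 2 replicates are too few to call the genes separated. Replicate 2 ranked each of the 3 genes higher than replicate 1 did, and how often this held over all bound genes was not counted.

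How many of the 3 were bound depended on the definition. With a promoter window from 500 bp upstream to 100 bp downstream, gss-1 and gsr-1 were bound and gcs-1 was not (12.2% of all genes). With each peak given only to the nearest protein-coding start, gcs-1 and gsr-1 were bound and gss-1 was not (11% of all genes). All 3 were bound with a window from 2000 bp upstream (19% of all genes), with the 5′-most start only (14%) and with only the 1742 strongest optimal peaks (8.8%), where gsr-1 at rank 1631 was near the limit. With the 5′-most start only, gsr-1 kept its upstream peak and lost the intronic one. All 3 were also bound with the 3484 strongest regions of replicate 1 alone (14.1%) and of replicate 2 alone (14.9%). The pooled list, which includes background, gave 44.7% of all genes and all 3 members.

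Other genes of glutathione metabolism were mostly not bound. The list of 22 held the regulatory subunit of glutamate-cysteine ligase, thioredoxin reductases and glutathione peroxidases. It also held other enzymes that use glutathione, and enzymes that supply cysteine or NADPH. Of the 22, 4 were bound, against 15% of all protein-coding genes, a share near the background that is no result about the list. With the 3484 strongest regions of replicate 1, 3 were bound, and with those of replicate 2, 6 were. The window from 2000 bp upstream gave 7, with gpx-4, cth-2 and glod-4 added.

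The strongest of the 22 was gclm-1 (WBGene00017084), the regulatory subunit that pairs with the product of gcs-1. It had optimal peaks at ranks 365 and 636, near that of gcs-1 at 308. The stronger one spanned 4140309 to 4140604 of chromosome I and its summit lay 192 bp upstream of the start. Its signal was 81.1 in replicate 1, at rank 185, and 51.2 in replicate 2, at rank 858. The replicates thus ranked gcs-1 and gclm-1 in opposite orders, and the 2 subunits are not separated. A peak of gclm-1 also lay in the promoter window of akir-1.

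The other 3 bound genes were pcs-1, gspd-1 and idh-1. Phytochelatin synthase, encoded by pcs-1, polymerises glutathione to chelate heavy metals, and its peak ranked 1048, 763 bp upstream of the start and in the window of smc-6 as well. It ranked 875 in replicate 1 and 1241 in replicate 2, with signals of 39.9 and 42.6. Glucose-6-phosphate dehydrogenase, encoded by gspd-1, and the NADP-dependent isocitrate dehydrogenase idh-1 supply the NADPH that glutathione reductase consumes. Their peaks ranked 2413 and 3075, both below the 1742 strongest optimal peaks, and neither gene was bound with the strongest regions of replicate 1.

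**Figure D4:**
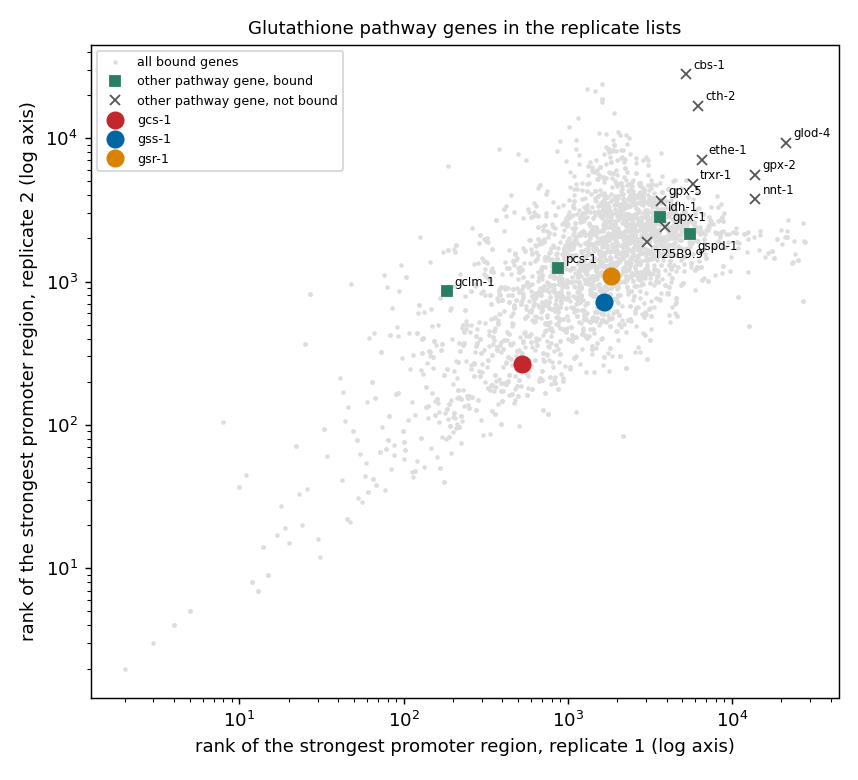
Rank of the strongest promoter region in replicate 2 (y axis) against replicate 1 (x axis, both log axes) for the 3 members, for the 14 other pathway genes with a region in both lists and, in light grey, for all bound genes. The strongest region of gsr-1 is the upstream one in replicate 1 and the intronic one in replicate 2. The gene gclm-1 ranks above every member in replicate 1, at 185, and between gss-1 and gsr-1 in replicate 2, at 858. The gene pcs-1 ranks between gcs-1 and gss-1 in replicate 1, at 875, and below every member in replicate 2, at 1241. All other pathway genes drawn rank below every member in both replicates.

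Among the enzymes that use glutathione against peroxides, 0 of the 8 glutathione peroxidase genes, gpx-1 to gpx-8, were bound, against 15% of all genes, and so few genes are too small a set to read against that share. With the strongest regions of replicate 2 gpx-1 was bound, and with the window from 2000 bp upstream gpx-4 was. For gpx-1 and gpx-5, the strongest promoter region ranked 3490 and 3551 in the pooled list, just below the 3484 regions that entered the optimal list. Of the other peroxidase genes, gpx-2 and gpx-6 had pooled regions at ranks 7182 and 13518, and gpx-3, gpx-4, gpx-7 and gpx-8 had none. The thioredoxin reductases, which share the disulfide reductase family with gsr-1, were not bound either. The gene trxr-1 had its strongest region at pooled rank 5286 and at rank 4791 in replicate 2, both 318 bp upstream, while its strongest region in replicate 1 was another, 144 bp upstream at rank 5787. The gene trxr-2 had no region in any list.

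Of the 4 genes of cysteine supply, 0 were bound, against 15% of all genes, and this set too is too small to read against that share. With the window from 2000 bp upstream, cth-2 was bound. The transsulfuration genes cbs-1, cth-1 and cth-2 had pooled regions at ranks 8623, 9599 and 11906, and cbs-2 had a region in replicate 2 alone, at rank 7873. Of the NADPH genes not bound, T25B9.9, which encodes 6-phosphogluconate dehydrogenase, had its strongest region at rank 6117 in the pooled list, 3042 in replicate 1 and 1886 in replicate 2. These are not 1 region, since the summit was 751 bp upstream in replicate 1 and 1000 bp upstream, at the edge of the window, in replicate 2. With the 3484 strongest regions of either replicate alone, T25B9.9 was bound, and it is included in both of those counts above. The other NADPH gene not bound, the transhydrogenase nnt-1, had a pooled region at rank 7669. Of the genes that use glutathione, the glyoxalase glod-4 and the persulfide dioxygenase ethe-1 were not bound. Their pooled regions ranked 17718 and 7220. Over the whole list, bound genes included, 16 of the 22 had a pooled region in a promoter window, and 44.7% of all genes did.

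The genes most like each member were found by the smallest sum, over the optimal list and both replicate lists, of the difference in log10 rank of the strongest promoter region. For gcs-1 these were nduf-11 (a sum of 0.036), and cdc-6 and acin-1, which share a peak (0.049). For gss-1 they were disl-2 and T24G10.2, again with a shared peak (0.035), and F56D2.5 (0.038). For gsr-1 they were Y51H7C.7 and Y51H7C.41, likewise sharing (0.087), and utp-20 (0.103). The comparison covered 2977 to 2978 genes over 3 lists from 2 replicates, and a likeness of ranks says nothing of function.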

How the data were processed

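ChIP-seq regions of eGFP-tagged SKN-1 in L1 larvae from 2 biological replicates were used as deposited in narrowPeak layout. The deposited readme says that the regions of a replicate, background included, were called from its own alignments with 1 control alignment used for both, the pooled list from both together, and the optimal list from these 3. The signal value of each region is the authors' own and was compared within a list only. The −log10 q-value deposited by the authors was at its maximum in 67.3% of optimal peaks and was used only as an alternative ranking. Read depth, like the caller, the aligner and their thresholds, is not given in the sources used. The ce10 lists were not used here.

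Transcript starts were those of coding transcripts in Ensembl release 115 (WBcel235), and sequence came from the RefSeq copy of that assembly. All region ends fell within its chromosome lengths. Positions count from 1. The sequence of the intronic peak of gsr-1 is not reported here. Motifs were searched on both strands within 75 bp of summits, with flanking windows 1000 bp downstream on the plus strand, or upstream where an optimal summit was within 200 bp of that window's centre. Windows, nearest-gene assignment and motif search were tested on simulated data. Python 3.11.15, numpy 2.4.6, pandas 2.3.3, scipy 1.17.1 and matplotlib 3.10.9 were used. The labels name both replicates as separate biological samples. No test was made, since there is 1 group and the members, lists and rules were chosen with earlier results of these data known. Genes named are the members, genes sharing their regions, the pathway genes that were bound and the 3 genes most alike in rank to each member; the pathway genes not bound are named in addition, all of them. Alternatives changed the window, the gene assignment, the list, the ranking column, the motif window and the replicates used.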

Additional observations from a re-analysis of the deposited data

How the results depend on the processing

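The members' count of 3 ranged from 2 to 3, and was 3 without either replicate. The pathway count of 4 became 2 with the narrow window, 7 with the wide one, 2 with the 1742 strongest peaks and 16 with the pooled list, and was 3 to 6 without 1 replicate. Without 1 replicate, the rank of gcs-1 was 268 to 525, that of gss-1 714 to 1664 and that of gsr-1 1086 to 1847. The distance of the strongest summit from the start then ranged from -626 to -607 bp for gcs-1, from -425 to -408 bp for gss-1 and from -428 to 116 bp for gsr-1, whose strongest peak is the upstream one without replicate 2, at -428 bp. Against the 5′-most start the intronic gsr-1 summit lay at 216 bp, outside the promoter window of that start, which ends at 200 bp. The upstream summit, at -444 bp, lay within it. Ranked by −log10 q-value, where most peaks are tied, gcs-1 and the other 2 genes took the shared rank 1173.5. The upstream peak of gsr-1 had 0 SKN-1 sites within 75 bp, 3 within 150 bp and 1 around the summit of either replicate alone. No paired analysis was possible because there is 1 group. The unknown read depth limits every rank, and a gene without a region may be below detection.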
